A study of Mus musculus with 8 samples.

Results

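The genes described here encode the core of the oxygen-sensing machinery: the hypoxia-inducible factor (HIF) subunits Hif1a, Epas1, Hif3a, Arnt and Arnt2, the VHL ubiquitin ligase subunits Vhl, Cul2 and Rbx1, and the asparaginyl hydroxylase FIH, encoded by Hif1an. Every probe set that the array's annotation assigns to one of these 9 genes alone was taken, which gave 28 of 45037 probe sets that are not controls, for 9 of 18193 genes on the array. Signals came from 8 RNA samples of mouse embryonic fibroblasts (MEFs) immortalized with large T antigen, 2 in each of 4 groups: VHL/FIH null (here double null), VHL null, FIH null and wild type. The null cells were made from floxed MEF lines, called VHLdf/FIHdf, VHLdf and FIHdf in the design text, by infection with an adenovirus carrying Cre recombinase. All cells grew at 21% oxygen in high-glucose medium with 10% serum. Cre was delivered by the virus rather than by a promoter of a cell type. The labels do not say whether wild type cells received virus, nor whether the 2 samples of a group, called biological replicates, came from separate embryos or cultures. P-values therefore measure the spread between these samples only, and genotype cannot be told apart from the line of origin.

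HIF works as a pair of an oxygen-sensitive alpha subunit (HIF1A, EPAS1 or HIF3A) and a stable beta subunit (ARNT or its relative ARNT2). In oxygen, prolyl hydroxylases mark the alpha subunit, VHL recognizes the mark, and VHL, Elongin B, Elongin C, CUL2 and RBX1 together attach ubiquitin that sends the subunit to the proteasome. FIH adds a hydroxyl group to an asparagine of HIF1A and of EPAS1, which keeps coactivators of the CBP family from binding. Most of this regulation acts on proteins, whereas the arrays measured RNA.

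The authors deposited MAS5 signals, which are intensities on a linear scale. A signal of 291.1, the median over all arrays, served as the cutoff for low signals, which is not a call of detection, and a probe set above it on at least 2 arrays was tested. This left 24523 probe sets in all and 18 of the 28 described here, with at least 1 for each of the 9 genes. Of the 10 left out, 8 never exceeded the cutoff and 1 each of Hif3a and Arnt2 did so on 1 array. The brightest tested probe set of a gene, by mean log2 signal, is called its lead. Signals of different probe sets were not read as relative amounts of RNA, since each binds with its own efficiency. Sums of marker signals therefore weigh the brightest probe sets most. Changes are differences of log2(signal + 16) with their standard error (SE) from limma, and a change passed at a Benjamini-Hochberg adjusted p under 0.05 over all tested probe sets. Percentages of a group are ratios of mean signals.

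Array medians ran from 281.7 to 307.5, and arrays of the same group correlated at r = 0.987 to 0.988 against 0.946 to 0.977 between groups. Of 10 fibroblast markers 7 exceeded the cutoff on all 8 arrays. Dcn signal was 130 ± 117 in double null, 1056 ± 102 in VHL null, 113 ± 49.4 in FIH null and 610 ± 31.5 in wild type cells (SD, n = 2 each). Pdgfra signal was 175 ± 20.8, 1820 ± 289, 803 ± 135 and 1010 ± 330 in the same order, and it exceeded the cutoff on 6 arrays. Thy1 exceeded the cutoff on 3 arrays. The endothelial genes Pecam1, Cdh5, Emcn and Tie1 exceeded it on none, while Kdr did so on 4 arrays and Tek on 1. The leukocyte genes Ptprc, Adgre1 and Itgam exceeded it on none, while the macrophage markers Cd68 and Csf1r did so on all 8 arrays. Summed signals of 5 epithelial markers were 40077 to 47081 in double null, 15493 to 15703 in VHL null, 10024 to 10343 in FIH null and 8971 to 9015 in wild type arrays. Most of this was the keratin gene Krt19 (42622 ± 4954 in double null and 7759 ± 286 in wild type cells, SD, n = 2 each), while Cdh1 and Krt14 exceeded the cutoff on no array. The part of these marker differences in the results below was not tested.

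In double null against wild type cells 9 of the 18 tested probe sets passed, 2 higher and 7 lower, beside 34.1% of all tested probe sets (14.1% higher, 20% lower). In VHL null against wild type cells 9 passed, also 2 higher and 7 lower, beside 35.3% of all (13.2% higher, 22.1% lower). In FIH null against wild type cells 1 passed, the lead probe set of Hif1an, beside 4.33% of all (1.16% higher, 3.17% lower). Double null cells differed from VHL null cells at 9 probe sets (4 higher, 5 lower), where 29.8% of all passed (16% higher, 13.8% lower), and from FIH null cells at 8 (1 higher, 7 lower), where 38.3% of all passed (16.8% higher, 21.5% lower). The 2 higher calls in double null against wild type cells were Epas1 and Rbx1. Rbx1 was also 1 of the 2 higher in VHL null cells. Epas1 was 1 of the 4 higher against VHL null cells and the 1 higher against FIH null cells. Both probe sets entered the tests only through arrays of groups where they were high, so these calls are no independent support. Of the lower calls in double null against wild type cells, both Vhl probe sets and 1428576_at and 1452845_at of Hif1an are for genes labelled null there. So are both Vhl probe sets in VHL null and the 1 Hif1an call in FIH null cells. The Hif1an calls against VHL null and the Vhl calls against FIH null cells are of this kind too. The design favoured such calls, which are no independent support, and the counts and medians here include them. These counts and percentages describe the genes chosen, whose median log2 change was -0.22 in double null, -0.21 in VHL null and -0.20 in FIH null against wild type cells, against medians of -0.06, -0.07 and -0.00 over all tested probe sets in the same order. The control transcripts spiked into each hybridization read higher than in wild type by 0.52 in double null, 0.38 in VHL null and 0.26 in FIH null arrays on the log2 scale. Scaling to them moved the median change of all probe sets to -0.57, -0.45 and -0.26 in that order, and every change below is relative to the level of all genes. With that scaling 4.93% of the calls in double null, 5.32% in VHL null and 1.37% in FIH null against wild type cells were higher, in place of 41.3%, 37.5% and 26.8%. The same shares were 54.3%, 53.2% and 64.4% with centring on the median.

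**Figure D1:**
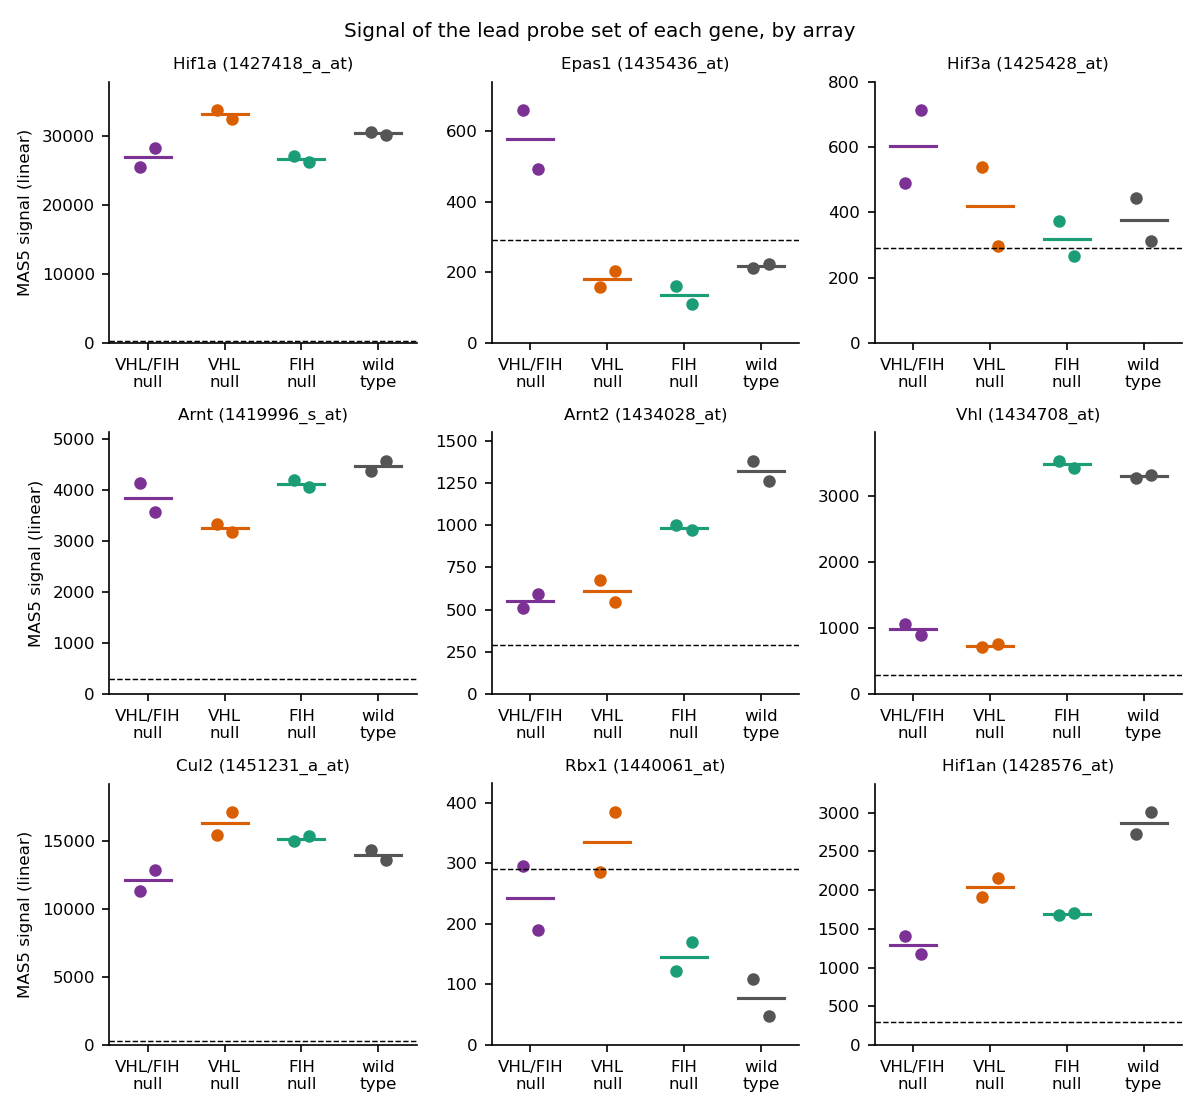
Signal of the lead probe set of each of the 9 genes (vertical axes, MAS5 signal on a linear scale) on every array, with double null, VHL null, FIH null and wild type from left to right, bars for group means and a dashed line at the cutoff of 291.1. Vhl was low on all 4 arrays of the double null and VHL null groups, Hif1an was highest on both wild type arrays, and Epas1 exceeded the cutoff on the double null arrays only.

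Vhl (chr6:113623994-113631634, GRCm38.p6), which encodes the subunit that recognizes hydroxylated HIF alpha, kept a reduced signal in the cells labelled null for it. Its lead probe set 1434708_at had signals of 1061.3 and 897.3 in double null cells, 707.6 and 754.5 in VHL null cells, 3533.8 and 3425.6 in FIH null cells, and 3268.7 and 3319.6 in wild type cells. The 4 arrays of cells labelled as lacking VHL were low, and none overlapped with the other 4. Its double null signal was 29.7% of the wild type mean, a change of -1.74 (SE 0.112, adjusted p = 1.38e-06). The VHL null signal was 22.2% of it, a change of -2.15 (adjusted p = 5.88e-07). The signal that remained was above the cutoff on all 4 of these arrays. Which exons were deleted is not stated in the labels, so whether this probe set lies inside the deleted part is not known, and a remaining signal is no measure of VHL protein.

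The other Vhl probe set, 1421071_at, followed the lead over the 8 arrays (r = 0.982 on the log2 scale; the arrays share one set of hybridizations and the genotype steps). It had signals of 461.5 and 677.9 in double null, 416.3 and 457.4 in VHL null, 2453.0 and 2863.6 in FIH null, and 2701.9 and 2507.1 in wild type cells. Again the arrays of the double null and VHL null groups lay below all others. Its double null signal was 21.9% of the wild type mean (a change of -2.19, adjusted p = 7.38e-06) and its VHL null signal 16.8% (-2.53, adjusted p = 4.53e-06). All 4 of these calls, and those of both probe sets in double null against FIH null cells, held under every alternative that kept the probe set.

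Vhl signal on the lead probe set was higher in double null than in VHL null cells, by 0.41 (SE 0.112, adjusted p = 0.0188), or 134% of the VHL null mean. This call ended with scaling to hybridization controls (0.27, adjusted p = 0.0933), with only the compared groups in the fit (0.110), without VHL null replicate 1 (0.0906) and without double null replicate 1 (0.102). On 1421071_at the same difference was 0.35 and did not pass (adjusted p = 0.167). In FIH null against wild type cells the difference of Vhl was 0.08 on the lead probe set (95% interval -0.17 to 0.33, adjusted p = 0.766) and 0.03 on the other (-0.37 to 0.42, adjusted p = 0.958), neither of which passed.

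Hif1an (chr19:44562854-44576274, GRCm38.p6), the gene of the asparaginyl hydroxylase FIH, fell on its lead probe set in both groups labelled null for it and also in VHL null cells. Its lead probe set 1428576_at had signals of 1403.6 and 1169.2 in double null cells, 1912.6 and 2152.9 in VHL null cells, 1676.0 and 1706.7 in FIH null cells, and 2721.9 and 3012.9 in wild type cells. Both wild type arrays were highest and both double null arrays lowest, with no overlap between any 2 groups. The double null signal fell to 44.9% of the wild type mean (-1.15, adjusted p = 4.35e-05) and the FIH null signal to 59.0% (-0.75, SE 0.119, adjusted p = 0.00449). It also fell in VHL null cells, which carry no FIH deletion in their label, by 0.49 to 70.9% of wild type (adjusted p = 0.00886). That call ended without wild type replicate 2 (0.0634) and without VHL null replicate 1 (0.0693).

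With FIH loss in cells without VHL, double null against VHL null, the lead probe set of Hif1an fell by 0.66 (adjusted p = 0.00215), to 63.3% of the VHL null mean. This differed from the change of -0.75 in cells with VHL by 0.10 (95% interval -0.27 to 0.47), which did not pass the test of the difference (adjusted p = 0.743). Double null cells were lower than FIH null cells by 0.40 (adjusted p = 0.0228), a call that ended without FIH null replicate 1 (0.0804), FIH null replicate 2 (0.0987) or double null replicate 2 (0.142). In the order of the groups VHL null and FIH null cells were neighbours that did not differ past the threshold (0.26, adjusted p = 0.102).

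The other 2 tested probe sets of Hif1an were dim. 1452845_at had signals of 260.6 and 174.9 in double null, 665.2 and 602.0 in VHL null, 313.4 and 200.7 in FIH null, and 654.8 and 486.7 in wild type cells. Both double null arrays lay below the cutoff, and both VHL null and both wild type arrays lay above it and overlapped each other. The double null signal was at least 1.96-fold lower than in wild type (adjusted p = 0.00647) and at least 2.18-fold lower than in VHL null cells (adjusted p = 0.00414), where the bound sets the brighter group's mean against the cutoff. The call against wild type ended without wild type replicate 1 (0.0612).

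On 1452845_at the change in FIH null cells was -1.12 and did not pass (adjusted p = 0.072), and that in VHL null cells was 0.16 (adjusted p = 0.716), so the lower signal of the lead probe set in VHL null cells was not seen on this one. 1447817_at had signals of 134.1 and 218.3 in double null, 332.0 and 231.6 in VHL null, 269.0 and 41.7 in FIH null, and 335.6 and 359.8 in wild type cells. Its FIH null arrays lay far apart, and no comparison passed (adjusted p from 0.245 to 0.739). Without FIH null replicate 1 the comparison of FIH null with wild type cells passed (adjusted p = 0.0246), but it then rests on 1 array below the cutoff that is assumed to vary like the other groups. As for Vhl, the deleted exons are not given, and a remaining signal is no measure of FIH protein.

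**Figure D2:**
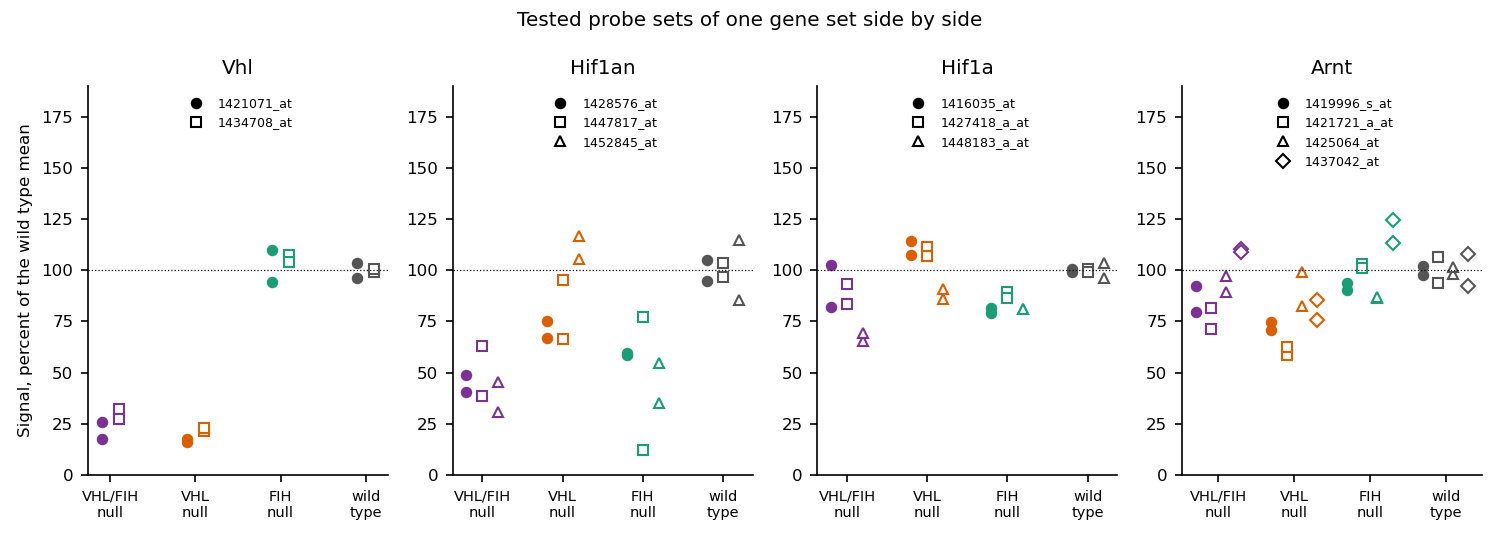
Signals of every tested probe set of Vhl, Hif1an, Hif1a and Arnt as a percentage of that probe set's wild type mean (vertical axes, linear scale), with 1 point per array in double null, VHL null, FIH null and wild type cells. Both Vhl probe sets fell together in double null and VHL null cells, whereas the Hif1an, Hif1a and Arnt probe sets of the same gene spread apart within groups.

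Cul2 (chr18:3382970-3436700, GRCm38.p6) encodes the cullin scaffold that ties VHL and the Elongins to RBX1. Its lead probe set 1451231_a_at had signals of 11352.2 and 12852.2 in double null cells, 15436.7 and 17166.8 in VHL null cells, 14974.7 and 15347.9 in FIH null cells, and 14373.7 and 13599.1 in wild type cells. The double null arrays were lowest and the VHL null arrays highest, with no overlap between groups. Cul2 fell by 0.43 in double null against VHL null cells (SE 0.077, adjusted p = 0.00205), to 74.2%, and by 0.33 in double null against FIH null cells (adjusted p = 0.00685), to 79.8%. Against wild type the double null change was -0.21 and did not pass (adjusted p = 0.0569). In bulk RNA such as this, less RNA per cell and fewer cells that express a gene cannot be told apart.

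The rise of Cul2 in VHL null over wild type cells (0.22, adjusted p = 0.0479) was near the threshold, and scaling to hybridization controls turned it to -0.16 (adjusted p = 0.124). It also ended without a filter on low signals (0.0839), with quantile normalization (0.0975), without a variance trend (0.136), and without any one of wild type replicates 1 (0.0813) and 2 (0.197), FIH null replicates 1 (0.0708) and 2 (0.0708) and VHL null replicate 2 (0.283). On the second Cul2 probe set, 1419765_at, all signals lay between 945.5 and 1313.6. Its changes had the same sign as those of the lead, at -0.37 in double null against VHL null cells (adjusted p = 0.0515) and 0.22 in VHL null against wild type cells (adjusted p = 0.2), and none passed.

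Rbx1 (chr15:81466316-81476369, GRCm38.p6), the RING subunit that brings the ubiquitin-conjugating enzyme to the cullin, had 1 probe set of its own, 1440061_at, and 5 more that the annotation lists with another gene were left out. Its signals were 294.6 and 189.5 in double null, 285.9 and 385.2 in VHL null, 121.9 and 169.3 in FIH null, and 108.6 and 47.7 in wild type cells. Only 1 double null and 1 VHL null array exceeded the cutoff, and all 4 arrays of these groups lay above the other 4. The probe set entered the tests through these 2 arrays, in the groups where it was high, so its p-values are no independent support. The VHL null mean was at least 1.15-fold higher than wild type (adjusted p = 0.00969), a call that ended without wild type replicate 2 (0.0547) or VHL null replicate 2 (0.0717). The double null change passed at adjusted p = 0.0335, with both group means below the cutoff, and ended in 8 of 20 alternatives (adjusted p from 0.0513 to 0.178), among them those without wild type replicate 2, VHL null replicate 2 or either double null replicate.

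The Elongins that link VHL to the cullin were measured at high signals. Elob, the gene of Elongin B, averaged 55292 ± 2775 in double null, 60621 ± 2460 in VHL null, 48522 ± 747 in FIH null and 43979 ± 2002 in wild type cells (SD, n = 2 each). It rose relative to all genes by 0.33 in double null (adjusted p = 0.00212) and by 0.46 in VHL null cells (3.22e-04), but scaling to hybridization controls turned the first to -0.19 (adjusted p = 0.00967) and took the second to 0.085 (adjusted p = 0.217). Quantile normalization took them to 0.19 and 0.29, and both calls held there. Eloc, the gene of Elongin C, averaged 37426 ± 499 in double null, 37904 ± 1668 in VHL null, 36568 ± 2471 in FIH null and 33783 ± 1522 in wild type cells (SD, n = 2 each). None of its changes passed, and the largest was 0.17 in VHL null cells (adjusted p = 0.0727), turned to -0.21 by the same scaling.

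A list of 21 tested genes held the ligase's other partners, Elob and Eloc included, and the NEDD8 pathway that activates cullins. It also held substrate receptors other than VHL that CUL2 uses and a relative of RBX1. Of the 21, 6 were higher and 2 lower in double null, 6 higher and 1 lower in VHL null, and 0 passed limma's test in FIH null against wild type cells (6 at an unadjusted p under 0.05). Of all genes tested, each by its lead probe set, 39%, 41.4% and 5.28% passed in the same order. With scaling to hybridization controls 0 of the 21 were higher and 18, 17 and 12 were lower. In VHL null cells the 7 calls became 3 without a variance trend and 4 without any one of the wild type or VHL null replicates, and 11, of which 10 were higher, with median centring. In double null cells the 8 calls became 5 without a variance trend and without double null replicate 2. Of 7 other cullin genes, 0 were higher and 1 lower in double null against wild type cells. In VHL null against wild type cells 1 was higher and 1 lower, and in FIH null cells 0 passed. In double null against FIH null cells 0 were higher and 1 lower, where 43.5% of all passed. In double null against VHL null cells 0 were higher and 3 lower, where 35% of all passed. These 3 calls were 0 without a variance trend and without either VHL null replicate, and 1 without double null replicate 2. Nothing is read from the cullin counts against those shares.

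Hif1a (chr12:73901324-73947554, GRCm38.p6), the gene of the broadly expressed alpha subunit, had a high signal in every group. Its lead probe set 1427418_a_at, of a type that can match several transcripts of one gene, had signals of 25481.2 and 28346.9 in double null, 33864.3 and 32543.7 in VHL null, 27146.3 and 26236.6 in FIH null, and 30620.4 and 30233.0 in wild type cells. The VHL null arrays were highest, and the double null and FIH null arrays, which overlapped each other, lay below all others. Hif1a fell by 0.30 in double null against VHL null cells (SE 0.0634, adjusted p = 0.00472), to 81.1%. Against wild type the changes were -0.18 in double null (adjusted p = 0.0508), 0.13 in VHL null (adjusted p = 0.149) and -0.19 in FIH null cells (adjusted p = 0.142), and none passed. Scaling to hybridization controls turned the VHL null value to -0.25 (adjusted p = 0.0129).

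A second Hif1a probe set, 1448183_a_at, had signals of 3367.4 and 3568.2 in double null, 4425.9 and 4671.2 in VHL null, 4170.6 and 4160.0 in FIH null, and 5329.4 and 4945.1 in wild type cells. The double null arrays were lowest and the wild type arrays highest, without overlap. It fell by 0.56 in double null against wild type cells (SE 0.0763, adjusted p = 2.80e-04), to 67.5%, and by 0.39 in double null against VHL null cells (adjusted p = 0.00339), to 76.2%. Its fall of 0.26 in double null against FIH null cells (adjusted p = 0.0195) ended without double null replicate 1 (0.0843), FIH null replicate 1 (0.0912) or FIH null replicate 2 (0.0874), and with quantile normalization (0.0614).

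The third tested Hif1a probe set, 1416035_at, had signals of 5716.8 and 7155.9 in double null, 7483.9 and 7987.4 in VHL null, 5513.1 and 5695.9 in FIH null, and 6936.0 and 7021.5 in wild type cells. The double null arrays straddled the wild type arrays, and no comparison passed. In VHL null against wild type cells 1416035_at changed by 0.15 (adjusted p = 0.262) and 1448183_a_at by -0.17 (adjusted p = 0.101), beside 0.13 for the lead. None of these passed, and the difference in sign between probe sets was not tested. The 3 probe sets correlated with each other at r = 0.450, 0.653 and 0.888 over the 8 arrays. All 3 were lower in double null than in VHL null cells by 0.27 to 0.39, the smallest of these on 1416035_at and short of the threshold (adjusted p = 0.0556). In FIH null against wild type cells all 3 had negative changes, -0.19 to -0.32, that did not pass (adjusted p from 0.0558 to 0.142).

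Epas1 (chr17:86753864-86833410, GRCm38.p6) encodes the second alpha subunit, HIF-2 alpha, known for its expression in endothelium and in a restricted set of other cells. Its lead probe set 1435436_at had signals of 660.5 and 493.6 in double null cells, 158.9 and 204.3 in VHL null cells, 160.6 and 111.7 in FIH null cells, and 213.2 and 222.3 in wild type cells. Only the double null arrays exceeded the cutoff of 291.1, and they lay above all others without overlap. This probe set entered the tests only through the 2 double null arrays, so a difference of that group was favoured by the filter on low signals and its p-values are no independent support. The double null mean of 577 ± 118 (SD, n = 2) was at least 1.98-fold higher than in wild type (adjusted p = 0.0136), VHL null (adjusted p = 0.00651) and FIH null cells (adjusted p = 0.00131). The call against FIH null held under every alternative run. That against wild type ended without wild type replicate 1 (0.0617) and without double null replicate 1 (0.103), and that against VHL null without double null replicate 1 (0.0616).

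The single deletions gave Epas1 changes of -0.25 in VHL null (95% interval -1.02 to 0.52, adjusted p = 0.611) and -0.64 in FIH null cells (-1.41 to 0.13, adjusted p = 0.375), with all 6 arrays below the cutoff. The other Epas1 probe set stayed between 13.5 and 157.8 on all arrays and was not tested. Summed signals of 6 endothelial markers were 509.7 to 978.6 in double null and 614.0 to 715.3 in VHL null arrays. They were 607.6 to 682.4 in FIH null and 506.9 to 666.5 in wild type arrays, and these ranges overlapped. Within this sum Tek averaged 238.9 in double null, 29.1 in VHL null, 82 in FIH null and 95.15 in wild type cells. Tek was thus highest in double null cells, as Epas1 was, but exceeded the cutoff on only 1 array. The means of Pecam1, Cdh5, Kdr, Emcn and Tie1 were each highest in another group. Whether Tek has a part in the Epas1 result was not tested. The epithelial sum, mostly Krt19, was highest in the double null arrays, as Epas1 was, and its part in the result was not tested.

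Hif3a (chr7:17030993-17062427, GRCm38.p6) encodes an alpha subunit whose splice forms can restrain the other alpha subunits. Of its 6 probe sets only 1425428_at was tested, with signals of 490.5 and 714.5 in double null, 539.2 and 297.6 in VHL null, 371.9 and 265.7 in FIH null, and 443.3 and 312.1 in wild type cells. The double null arrays reached the highest values but overlapped with VHL null. No comparison of Hif3a passed, and the largest difference was 0.88 in double null against FIH null cells (95% interval 0.13 to 1.63, adjusted p = 0.0621). The other 5 probe sets stayed between 6.0 and 339.3.

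Arnt (chr3:95434367-95497240, GRCm38.p6), the gene of the common beta subunit that pairs with each alpha subunit, was lowest in VHL null cells on 3 of its 4 tested probe sets. The lead, 1419996_s_at, of a type that may bind transcripts of more than one gene, had signals of 4137.3 and 3574.7 in double null, 3342.7 and 3178.2 in VHL null, 4201.5 and 4058.3 in FIH null, and 4380.3 and 4582.0 in wild type cells. The VHL null arrays were lowest, and the double null and FIH null arrays overlapped. The VHL null signal fell to 72.8% of wild type (-0.46, SE 0.0872, adjusted p = 0.00259). In double null cells its change of -0.22 did not pass (adjusted p = 0.0762).

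On 1421721_a_at Arnt had signals of 1879.9 and 1642.9 in double null, 1349.1 and 1437.6 in VHL null, 2377.2 and 2326.4 in FIH null, and 2454.3 and 2158.0 in wild type cells. The FIH null and wild type arrays overlapped and lay above the double null arrays, which lay above the VHL null arrays. The double null signal fell to 76.4% of wild type (-0.39, adjusted p = 0.0204) and the VHL null signal to 60.4% (-0.72, SE 0.11, adjusted p = 7.34e-04). The double null call ended with quantile normalization (0.0579), without wild type replicate 1 (0.146) and without double null replicate 2 (0.117).

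The third, 1437042_at, had signals of 3600.2 and 3553.4 in double null, 2467.6 and 2793.5 in VHL null, 3703.1 and 4073.8 in FIH null, and 3520.8 and 3015.5 in wild type cells. Here the double null arrays lay above the wild type arrays, and the change of 0.13 did not pass (adjusted p = 0.34); scaling to hybridization controls turned it to -0.39 (adjusted p = 0.00604). It fell by 0.31 in VHL null cells (adjusted p = 0.0363), to 80.5% of wild type. That call ended with no filter on low signals (0.0578), quantile normalization (0.239), median centring (0.112), no variance trend (0.0857), only the compared groups in the fit (0.0613), and without wild type replicate 1 (0.241) or VHL null replicate 1 (0.209). The fourth, 1425064_at, stayed between 369.8 and 453.9, and none of its comparisons passed.

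Double null cells had more Arnt signal than VHL null cells on 1437042_at, by 0.44 (adjusted p = 0.00789, 136% of the VHL null mean), and on 1421721_a_at, by 0.33 (adjusted p = 0.0437, 126%). The call on 1437042_at ended with scaling to hybridization controls (0.0506) and without VHL null replicate 1 (0.0674), and the one on 1421721_a_at ended in 12 of 19 alternatives (adjusted p from 0.0532 to 0.223). On the lead the difference of 0.24 did not pass (adjusted p = 0.064). Against FIH null cells the double null signal on 1421721_a_at fell by 0.42 (adjusted p = 0.0126), a call that ended without FIH null replicate 1 (0.0719), FIH null replicate 2 (0.0545) or double null replicate 2 (0.0811).

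Arnt2 (chr7:84246274-84411741, GRCm38.p6), a relative of Arnt known for its expression in brain, fell in both groups labelled null for VHL. Its lead probe set 1434028_at had signals of 506.8 and 589.9 in double null cells, 675.7 and 546.7 in VHL null cells, 998.8 and 971.0 in FIH null cells, and 1383.1 and 1259.6 in wild type cells. The double null and VHL null arrays overlapped and lay below the FIH null arrays, which lay below the wild type arrays. Its double null signal fell to 41.5% of wild type (-1.25, SE 0.164, adjusted p = 2.32e-04) and its VHL null signal to 46.3% (-1.10, adjusted p = 6.26e-04). It was also lower in double null than in FIH null cells, by 0.83 (adjusted p = 0.00253), and these 3 calls held under every alternative that kept the probe set.

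Double null and VHL null cells differed in Arnt2 by -0.15 (95% interval -0.51 to 0.22, adjusted p = 0.539), and FIH null cells differed from wild type by -0.42 (-0.78 to -0.05, adjusted p = 0.213), neither of which passed. The 2 other Arnt2 probe sets lay between 22.9 and 299.9, above the cutoff on 1 array in all, and were not tested. Summed signals of 6 neural markers were 8094 to 8443 in double null, 6005 to 6282 in VHL null, 8344 to 9036 in FIH null and 8742 to 8755 in wild type arrays. Single markers differed from this sum. Sox2 averaged 7.35 in double null, 172 in VHL null, 547 in FIH null and 539 in wild type cells, low where Arnt2 was low. Map2 averaged 3450, 299, 3172 and 1719 in the same order and did not follow Arnt2. The part of the neural markers in the Arnt2 result was not tested.

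HIF binds DNA at the letters ACGTG or GCGTG, so both motifs were searched on both strands in the 250 bases before 1 transcript start per gene, taken from RefSeq promoters of build GRCm38.p6, which were found for 7 of the 9 genes, all but Epas1 and Cul2. The start used for Hif1a, Arnt and Arnt2 lies inside the gene span given above, so other starts of these genes were not searched, and for Hif3a, Vhl, Rbx1 and Hif1an it is the edge of the span. Of 32851 mouse promoters 16.6% held ACGTG, 28.2% held GCGTG and 38.6% held either. The promoters of Hif1a, Arnt and Arnt2 are shown because these subunit genes differed between groups, and capitals mark the motifs. They lie at chr12:73907617-73907866 on the plus strand, chr3:95434140-95434389 on the plus strand and chr7:84410039-84410288 on the minus strand, each read 5′ to 3′ along its gene; the Hif1a and Arnt2 windows lie wholly within the gene span and the Arnt window overlaps its edge.
Hif1a: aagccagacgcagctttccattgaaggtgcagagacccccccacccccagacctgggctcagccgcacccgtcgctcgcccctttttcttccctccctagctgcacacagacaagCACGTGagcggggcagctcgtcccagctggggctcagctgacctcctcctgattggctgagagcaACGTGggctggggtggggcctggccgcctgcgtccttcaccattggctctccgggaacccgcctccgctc
Arnt: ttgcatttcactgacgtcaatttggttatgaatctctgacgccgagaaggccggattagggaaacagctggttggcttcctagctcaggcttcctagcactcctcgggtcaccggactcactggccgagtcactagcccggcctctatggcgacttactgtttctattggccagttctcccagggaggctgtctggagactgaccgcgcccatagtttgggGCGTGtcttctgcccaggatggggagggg
Arnt2: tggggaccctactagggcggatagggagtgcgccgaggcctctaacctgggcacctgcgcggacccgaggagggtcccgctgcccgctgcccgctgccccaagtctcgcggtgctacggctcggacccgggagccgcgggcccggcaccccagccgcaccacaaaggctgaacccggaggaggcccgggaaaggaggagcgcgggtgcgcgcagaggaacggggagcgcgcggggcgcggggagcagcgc
Hif1a held ACGTG 3 times, since its palindrome CACGTG counts once on each strand. Arnt held GCGTG 1 time and Arnt2 neither motif. Hif3a and Rbx1 each held GCGTG 2 times, and Vhl and Hif1an neither. A match is a description of letters, not evidence of binding.

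**Figure D3:**
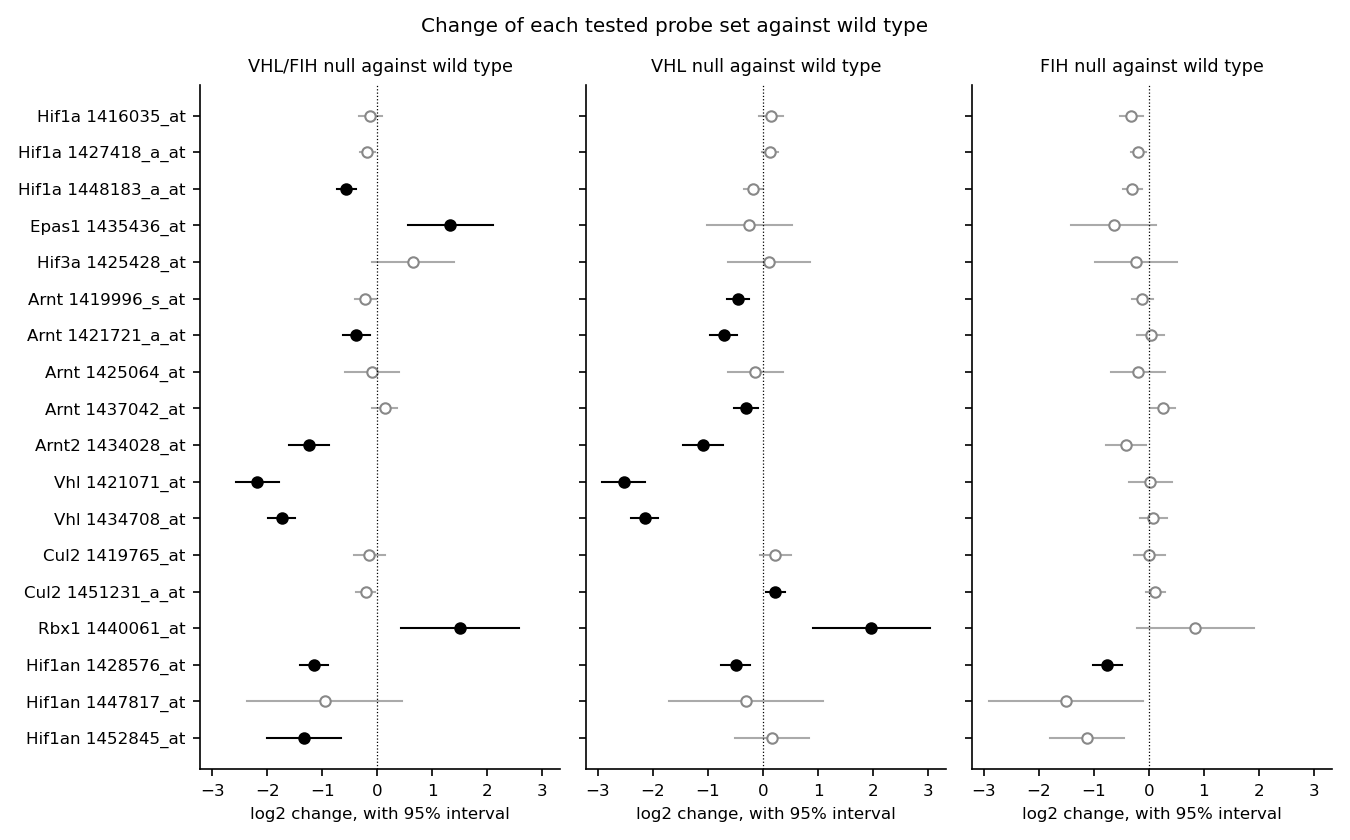
Log2 change of the 18 tested probe sets (horizontal axes) in double null, VHL null and FIH null against wild type cells, with 95% intervals from limma and filled points where the adjusted p was under 0.05. Vhl had the largest falls in double null and VHL null cells, and 1 probe set of Hif1an alone passed in FIH null cells.

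Whether FIH loss acted differently in cells with and without VHL was tested as an interaction, the change of double null against VHL null cells minus that of FIH null against wild type cells. It passed for 2 of the 18 probe sets, 1 higher and 1 lower, beside 15.7% of all tested probe sets (8.96% higher, 6.76% lower). The Epas1 interaction passed (adjusted p = 0.0129; 0.0553 without double null replicate 1), but 3 of its 4 groups lay below the cutoff, so its fitted size of 2.22 (SE 0.493) is not a measured fold. Epas1 entered the tests only through the double null arrays, and the FIH null against wild type part of the contrast compares signals that are both below the cutoff. The Cul2 interaction on its lead probe set was -0.55 (SE 0.109, adjusted p = 0.00748), from changes of -0.43 in cells without VHL and 0.12 in cells with VHL (adjusted p = 0.472). It ended without a variance trend (0.0617), and on 1419765_at the value was -0.37 and did not pass (adjusted p = 0.195). For the lead probe set of Arnt it was 0.35 (95% interval 0.08 to 0.63, adjusted p = 0.0797) and for that of Vhl 0.33 (-0.02 to 0.68, adjusted p = 0.19).

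**Figure D4:**
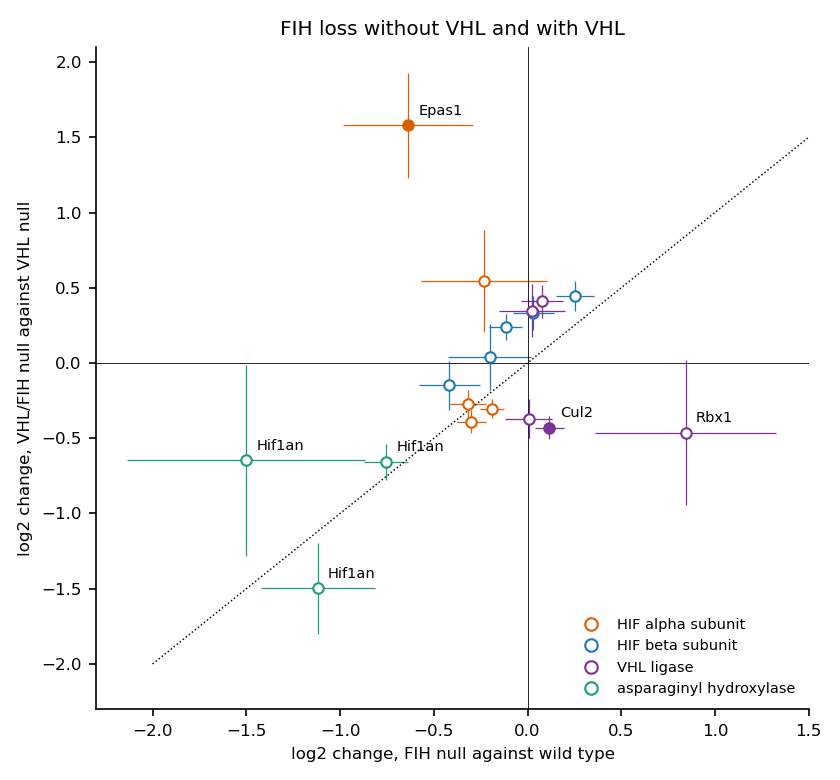
Log2 change with FIH loss in cells without VHL (double null against VHL null, vertical axis) plotted against that in cells with VHL (FIH null against wild type, horizontal axis) for the 18 tested probe sets, with bars for SE, a dotted line of equality and filled points where the interaction passed. Epas1, whose signal was below the cutoff in 3 of 4 groups, lies far above the line, the lead probe set of Cul2 lies below it, and the lead probe set of Hif1an lies near it.

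The prolyl hydroxylases that create the mark read by VHL, encoded by Egln1, Egln2 and Egln3, were set beside these genes as fixed partners. The list counted here had 4 tested genes, the fourth being the related P4htm, which was not a fixed partner. Of the 4, 3 were higher in double null, P4htm among them, 2 in VHL null and 1 in FIH null against wild type cells, with 0 lower. These counts stand beside 39%, 41.4% and 5.28% of all lead probe sets called in either direction. Egln3 averaged 17118 ± 588 in double null, 4300 ± 158 in VHL null, 1096 ± 14.7 in FIH null and 618 ± 21.6 in wild type cells (SD, n = 2 each), and rose in all 3 (4.76, 2.77 and 0.81, adjusted p = 6.64e-10, 1.65e-08 and 2.65e-04 in that order). Egln1 averaged 23340 ± 1649 in double null, 22675 ± 864 in VHL null, 7718 ± 308 in FIH null and 6715 ± 14.2 in wild type cells (SD, n = 2 each), and rose by 1.79 in double null (adjusted p = 3.37e-08) and 1.75 in VHL null cells (adjusted p = 6.96e-08). Double null and VHL null cells differed in Egln1 by 0.04 (adjusted p = 0.699), which did not pass, whereas Egln3 was higher in double null cells by 1.99 (adjusted p = 1.24e-07). No change of Egln2 passed (adjusted p = 0.0957 in double null and 0.0666 in VHL null against wild type cells).

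Of 19 tested genes for other regulators of HIF alpha stability or activity, 5 were higher and 4 lower in double null, and also 5 higher and 4 lower in VHL null against wild type cells, and 0 passed limma's test in FIH null cells (3 at an unadjusted p under 0.05). With scaling to hybridization controls 15 in double null, 14 in VHL null and 8 in FIH null cells passed, of which 1, 1 and 0 were higher. Another 12 tested genes were for the wider family of PAS proteins. These were bHLH-PAS transcription factors, to which the HIF subunits belong, and also nuclear receptor coactivators and period proteins. Of these 12, 3 were higher and 1 lower in double null, 3 higher and 3 lower in VHL null, and 0 higher and 1 lower in FIH null against wild type cells. The 6 calls of this family in VHL null cells became 3 without any one of the wild type or VHL null replicates, and the 4 in double null cells became 2 without wild type replicate 2 or double null replicate 2. Over all lead probe sets 39% were called in double null, 41.4% in VHL null and 5.28% in FIH null cells, and nothing is read from the counts of these 2 lists against those shares. As a reference for HIF output, 29 of 29 known HIF target genes were higher in double null, 27 in VHL null and 8 in FIH null against wild type cells, with 3 lower in FIH null cells, beside the same shares of all. The 11 calls in FIH null cells became 7, of which 4 were higher, without FIH null replicate 2, and scaling to hybridization controls left 4 higher of 11. Their median changes were 1.85, 1.55 and 0.18, against medians of -0.05, -0.10 and -0.00 for all genes.

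Genes outside the 9 whose signals ran most like theirs over the 8 arrays were named by Pearson correlation of lead probe sets on the log2 scale among 11555 genes. The arrays fall into 4 genotypes, so each correlation rests mainly on 4 group levels. For Vhl these were Trim26, Pank3 and Dvl2 (r = 0.994 each), and for Hif1an they were Txndc16 (0.989), Il6st (0.977) and Tnfrsf19 (0.972). For Hif1a they were Rnf2 (0.996), Mthfd2l (0.986) and the fibroblast marker Dcn (0.984), and for Epas1 they were Sim2 (0.984), Bmper (0.981) and Tbc1d9 (0.980).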

How the data were processed

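RNA of 8 samples was measured on Affymetrix Mouse Genome arrays, which read each gene through 1 or more probe sets. The table deposited by the authors holds linear signal intensities. They come from MAS5, per the submitters' processing notes, in a version not given in the sources used here. Each array had a 2% trimmed mean of 2500.01 and the values were used as deposited.

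Signals were transformed to log2(signal + 16). Probe sets above 291.1, the median of all signals that are not from controls, on at least 2 of 8 arrays were tested (24523 of 45037). R 4.3.3 and limma 3.58.1 fitted all 4 groups with an intensity trend (residual degrees of freedom 4, median prior 6.42). Tests were two-sided with Benjamini-Hochberg adjustment over all tested probe sets of each of 6 comparisons, and intervals are 95% without that adjustment. The fitting code was checked on simulated data. The number of arrays, 2 per group, limits the precision.

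Genes were named by the platform's annotation: 34945 probe sets had 1 symbol, 932 several and 9160 none, and only the first kind was used. The members and lists were chosen with earlier results of these data known. Named genes are the 9 members with all their probe sets, Elob, Eloc, Egln1, Egln2 and Egln3, and the 3 genes most correlated with each of Vhl, Hif1an, Hif1a and Epas1; marker genes are named beside results they touch, and P4htm was named after its values were seen. Gene positions and promoters are from RefSeq, build GRCm38.p6. The results were recomputed under 21 alternatives: other pseudocounts and filters, other scalings and normalizations, other fits, a replicate block and each array left out. The samples share replicate numbers, but changes between replicates 2 and 1 were not correlated between groups.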

Additional observations from a re-analysis of the deposited data

Results flagged for a closer look

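For 2 of the 18 tested probe sets, 11.1% beside 15.7% of all tested, the change with FIH loss differed between cells without and with VHL by a test of the difference itself. The fitted Epas1 interaction on 1435436_at was 2.22 on the log2 scale (adjusted p = 0.0129, and 0.0553 without double null replicate 1). Both double null arrays exceeded the cutoff of 291.1 and all 6 other arrays lay below it, so the probe set entered the tests only through the double null arrays and 2.22 is not a measured fold. The Cul2 interaction on 1451231_a_at was -0.55 (adjusted p = 0.00748), and its adjusted p was 0.0617 without a variance trend.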

How the results depend on the processing

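Of 2761 values of 138 single results under the alternatives, 2599 kept their side of the threshold and any called direction, 71 lost and 82 gained a call, and 9 reversed, all with scaling to hybridization controls. For 1656 values no call was made in either setting, and 54 of these differed in sign. The 9 were, in VHL null against wild type cells, Hif1a 1427418_a_at (-0.25), Cul2 1451231_a_at (-0.16) and Eloc (-0.21); in double null against wild type cells, Arnt 1437042_at (-0.39), Elob (-0.19) and Eloc (-0.38); in double null against FIH null cells they were Hif1a 1427418_a_at (-0.25), Elob (-0.077) and Eloc (-0.23). That scaling also moved the Epas1 change in double null against wild type cells to 0.82, that of Hif1a 1448183_a_at to -1.09 and that of Hif1an 1428576_at in VHL null cells to -0.87. Its median changes of all probe sets were -0.12 in double null against VHL null, -0.31 in double null against FIH null cells and 0.14 for the interaction.

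Over all tested probe sets, 1062 passed in FIH null against wild type cells (7974 with hybridization controls, 1730 with median centring, 559 without a variance trend, 520 to 1286 leaving out 1 array), 8658 in VHL null (15333; 5067 of 11564 with 1 probe set per gene; 5637 to 9264) and 8358 in double null (18017; 4789; 5873 to 8144). In double null cells 7310 passed against VHL null (4355 with 1 per gene, 4926 to 7119) and 9387 against FIH null (5267, 6578 to 9199), and the interaction had 3855 (2533; 2309 without a trend; 2290 to 3656). The higher share of calls in double null cells was 53.7% against VHL null and 43.8% against FIH null, and 57% for the interaction; these were 26.9%, 15.4% and 77.7% with hybridization controls, and the last 36.4% with median centring.

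Of the 18 probe sets of the 9 genes, the 1 in FIH null against wild type cells became 8 with hybridization controls, 4 with array weights, 2 with the 75th percentile as the filter (of 9 tested), with the replicate block and with only the compared groups, and 1 to 3 leaving out 1 array. The 9 in VHL null were 6 to 9 leaving out 1 array, and the 9 in double null 6 to 10, and 16 with hybridization controls. The 9 in double null against VHL null cells were 6 to 11, and the 8 against FIH null cells 5 to 9, and 5 with the stricter filter or 1 per gene. The 2 interactions were 1 to 3, and 1 with the stricter filter or no trend. The cause of these moves was not tested beyond the smaller number of probe sets or arrays. Of 750 counts over lists 124 moved by over 1.5 times. Replicate numbers were not paired: the change between replicates correlated at -0.02 to 0.03 over 6 pairs of groups. With the replicate block 9246 passed in VHL null, 8891 in double null and 1265 in FIH null against wild type cells. Signals near the cutoff limit Epas1, Hif3a, Rbx1 and the dim probe sets of Hif1an.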
